A study of Populus tremula x Populus tremuloides with 12 samples.

Results

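A set of 91 genes whose transcripts were more abundant in sunlight-exposed than in greenhouse leaves of both genotypes of a hybrid poplar was described, out of 33975 genes listed. The genes were chosen by their measured levels in all 12 libraries of the study, so the higher level in sunlight is a property of the choice and not a finding. Levels are CPM, a library's read counts brought to a common library size and scaled with trimmed means of M values (TMM). Differences were taken on log2(CPM + 0.5), which understates changes of genes at low level. A gene was chosen if it averaged at least 2 CPM in a group and if its sunlight minus greenhouse difference was at least 0.5 in each genotype and averaged at least 1 over both. In each genotype all 3 sunlight libraries had to lie above all 3 greenhouse libraries. The OE minus WT difference, between MYB165-overexpressing (OE) and wild-type (WT) leaves, had to be under 1 in size in both conditions. Of all genes listed, 20321 reached the level of 2 CPM.

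The plants were Populus tremula x Populus tremuloides, clone INRA 353-38. OE plants, labelled as MYB165-overexpressing, carried the binary vector pMDC32 with MYB165, introduced with Agrobacterium, and WT plants were wild type. The labels do not tell how many transgenic lines the OE plants stand for. All plants spent 1 month in a mist chamber after tissue culture and 2 months in a greenhouse. The 4 groups were OE sunlight, OE greenhouse, WT sunlight and WT greenhouse, with 3 trees and 3 libraries each. Sunlight plants stood outdoors for 1 week, and leaves 7 to 10 were taken from every plant. Light and the other conditions of the week outdoors cannot be told apart, nor can plant age if the greenhouse plants were harvested before that week. Bulk leaves were sequenced, so more cells of a type and more RNA per cell cannot be told apart either.

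Leaves moved from under glass into full sun meet more light, and ultraviolet light that glass holds back. Plants are known to answer with changes in photosynthetic antenna and protective proteins, in the removal of reactive oxygen and in the synthesis of flavonoids and other phenolic sunscreens. Photoreceptors for blue, red and ultraviolet-B light act on these genes through transcription factors, among them MYB proteins. In poplar, MYB165 is known to repress genes of the phenylpropanoid and flavonoid pathways. The deposited gene IDs are not paired with gene names or descriptions, so none of the genes below is given a name or a role, and MYB165 itself was not analysed here.

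Gene counts per library ran from 5870132, for OE sunlight 2, up to 27711999, for OE sunlight 6. The limit that a count of 0 allows, taken as 3 counts, lay between 0.104 and 0.480 CPM. Only 2 of the 91 genes had a count of 0 anywhere, Potra000955g07837 and Potra004122g24541, both in OE greenhouse 3, and both were singled out after their values were seen. Reads outside genes made up 32.2% of WT greenhouse 5 and 16.4% of WT greenhouse 3, and between 6.85% and 13.1% of the other libraries. OE greenhouse 3 stood apart for the genes described here, as given below, and results that changed when it was left out are given with and without it.

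The 91 genes together made up under 1% of the gene counts in every library. Their summed level was 5247, 5738 and 5397 CPM in OE sunlight 2, 4 and 6, and 2394, 1546 and 2326 CPM in OE greenhouse 1, 3 and 5. In WT it was 6076, 5811 and 5239 CPM in sunlight 2, 4 and 6, and 2546, 2432 and 2738 CPM in greenhouse 1, 3 and 5. No sunlight sum came near a greenhouse sum, an order that the choice fixes within each genotype. The lowest sum of all was that of OE greenhouse 3. Much of the sums came from Potra003143g20837 and Potra001324g11377. They averaged 654 and 461 CPM in WT greenhouse, where the sums averaged 2572 CPM, and 1076 and 815 CPM in OE sunlight, where the sums averaged 5461 CPM. As a share of gene counts, the 91 genes in OE averaged 0.559% ± 0.0044 in sunlight and 0.218% ± 0.043 in the greenhouse (SD, n = 3 each). In WT they averaged 0.592% ± 0.050 in sunlight and 0.231% ± 0.016 in the greenhouse (SD, n = 3 each).

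**Figure D1:**
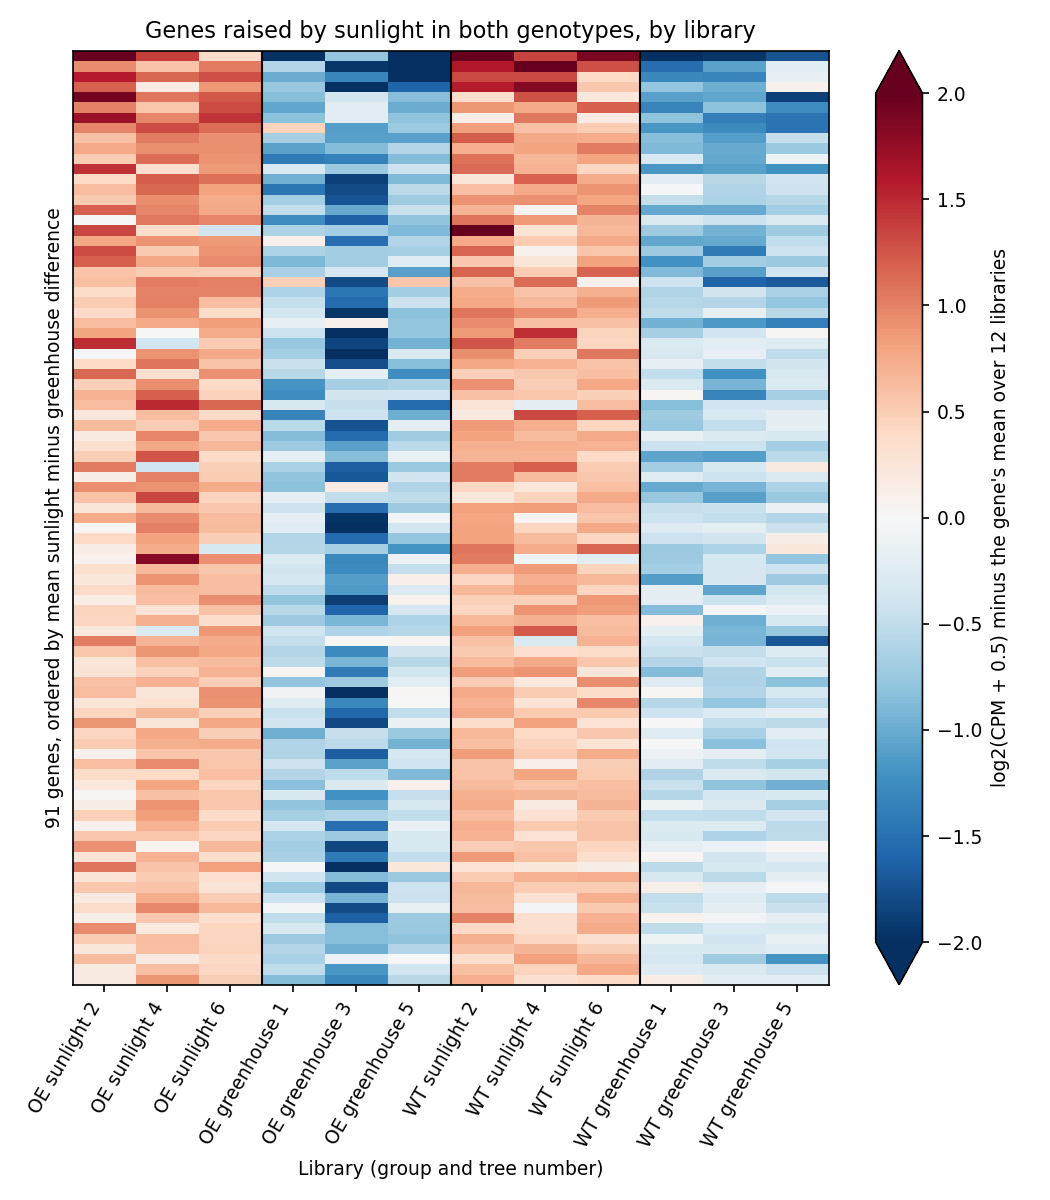
Each row is 1 of the 91 genes and each column a library, coloured by log2(CPM + 0.5) minus the gene's mean over the 12 libraries, with genes ordered by their mean sunlight difference. The sunlight columns are red and the greenhouse columns blue, as the choice requires, and OE greenhouse 3 is the darkest blue column.

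The members differed far more in level than in the size of the sunlight difference. In OE, group means spanned 1.79 to 1076 CPM in sunlight and 0.332 to 489.9 CPM in the greenhouse. In WT they spanned 1.07 to 1200.1 CPM in sunlight and 0.306 to 654 CPM in the greenhouse. The median member stood at 22.5 CPM in OE sunlight, against 7.74 CPM in OE greenhouse, and at 19.9 CPM in WT sunlight, against 8.996 CPM in WT greenhouse. By the mean of both greenhouse groups, 9 genes were under 1 CPM, 40 between 1 and 10 CPM, 39 between 10 and 100 CPM, and 3 at 100 CPM or more. The median greenhouse level of the members was 8.92 CPM, against 15.01 CPM for all genes that reached 2 CPM. In both greenhouse groups 18 of the genes lay under 2 CPM, so that they passed the level limit through a sunlight group and had to differ.

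The sunlight difference was of the order of 2-fold for most of the genes. The median log2 difference was 1.38 in OE, with a range of 0.64 to 3.09, and 1.15 in WT, with a range of 0.58 to 3.96. As ratios the medians were 2.61-fold in OE and 2.22-fold in WT. The corresponding medians over all 20321 genes were 0.0063 in OE and 0.013 in WT. In both genotypes 54 genes reached a log2 difference of 1, 32 did so in OE alone, and the remaining ones in WT alone. Among the chosen genes, a difference of 2 in both genotypes was reached by Potra010306g26557 and Potra002038g15935 only. By greenhouse level, the median difference on log2(CPM + 0.5) was 1.26 in OE and 1.27 in WT for genes under 1 CPM, and 1.41 in OE and 1.21 in WT for those between 1 and 10 CPM. It was 1.43 in OE and 1.10 in WT for those between 10 and 100 CPM, and 1.14 in OE and 1.08 in WT for the 3 at 100 CPM or more. The added 0.5 CPM compresses the low levels, so that genes at low level needed a larger fold to meet the limits on the difference. The limma log2 fold changes had medians of 1.81 in OE and 1.79 in WT under 1 CPM, 1.497 in OE and 1.29 in WT from 1 to 10 CPM, and 1.44 in OE and 1.11 in WT from 10 to 100 CPM. All 9 genes under 1 CPM passed the level limit through a sunlight group. The higher limma folds at low level thus follow in part from the rule.

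**Figure D2:**
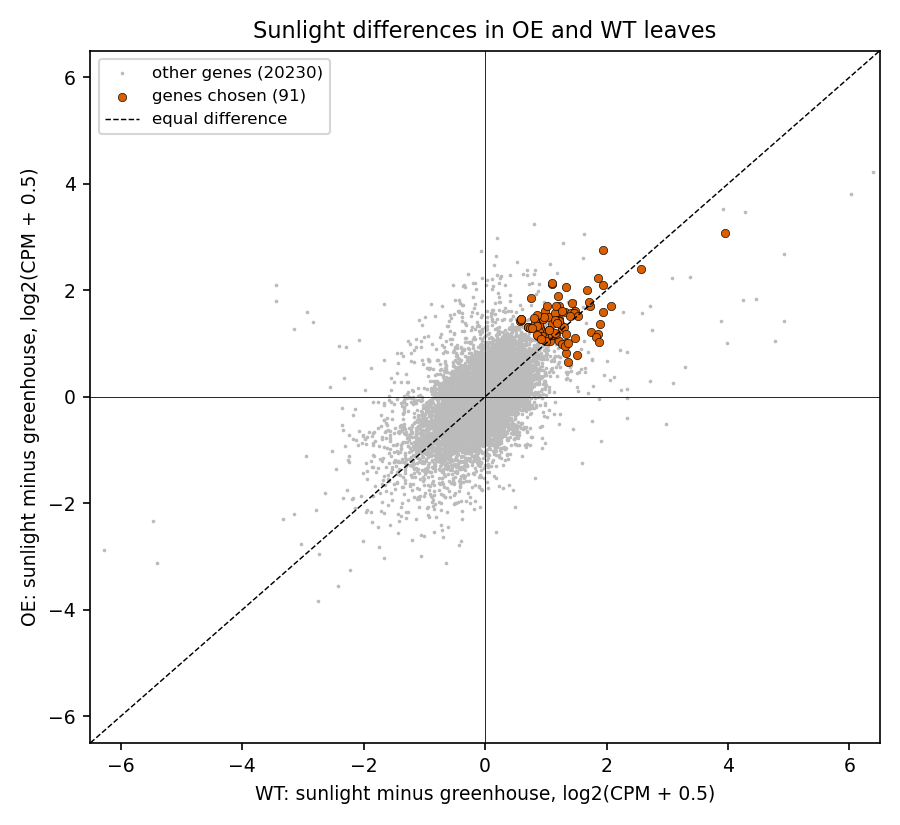
The vertical axis gives the sunlight minus greenhouse difference in OE and the horizontal axis that in WT, both on log2(CPM + 0.5), for 91 chosen genes (orange) and the other genes at 2 CPM or more (grey), with a dashed line of equal difference. More of the orange points lie above the line than below it, and 1 of them, Potra010306g26557, stands far from the others.

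The limit on the mean difference ran through a dense part of the distribution. The 3 genes just inside it had mean log2 differences of 1.0005, 1.0017 and 1.0033, and the 3 just outside, which met every other criterion, had 0.9991, 0.9981 and 0.9963. There were 278 genes that missed the mean difference alone, 31 that missed the OE minus WT limit alone and 22 that missed the separation of libraries alone. Among the 31, OE was lower than WT in both conditions for 22 genes, and the OE minus WT difference reached -5.84 in the greenhouse. Some of the 31 had larger sunlight differences in both genotypes than any chosen gene, while others had smaller ones. The largest were those of Potra001057g09065, 4.22 in OE and 6.40 in WT on the log2 scale. The sizes given for the chosen genes are thus not the upper end of the sunlight differences among all genes. The mirror image of the rule, for genes lower in sunlight in both genotypes, chose 160 genes.

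The sunlight contrasts were also fitted across all 22959 genes with enough counts, using limma. All 91 members were among the genes tested. For sunlight against greenhouse in OE, 66 of the 91 passed a Benjamini-Hochberg adjusted p under 0.05 as higher in sunlight, where 3.02% of all tested genes did. In WT 39 of them passed, where 0.645% of all tested genes did. There were 37 that passed in both genotypes, against 0.383% of all tested genes, and 23 passed in neither. These contrasts chose the genes, so the counts describe them and lend them no support. All tested genes that passed in both genotypes numbered 88, and 40 of those that were not members fell short on the mean difference. The OE count was 36 without OE sunlight 4 and 31 without OE sunlight 6. It was 9 when only OE libraries were fitted, while a fit of only WT libraries gave a WT count of 48. Calls among all genes were not counted for these fits, so a change particular to the members cannot be read from them. The WT count was 5, 6, 9, 15 and 24 without WT greenhouse 3, WT greenhouse 5, WT sunlight 2, WT greenhouse 1 and WT sunlight 6. It was 20 without OE sunlight 6 and 74 without OE greenhouse 3. The calls among all tested genes, in either direction, moved as well. In WT they numbered 320 with all libraries, and 35, 37, 51, 135 and 144 without WT greenhouse 3, WT greenhouse 5, WT sunlight 2, WT greenhouse 1 and WT sunlight 6. They numbered 125 without OE sunlight 6 and 1017 without OE greenhouse 3. In OE they numbered 1135 with all libraries, 178 without OE sunlight 4 and 116 without OE sunlight 6.

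Each library was also left out in turn, with the genes chosen on the other 11 and read in the library left out. That library did not enter the choice. The other condition of its genotype, against which it was read, did enter the choice, so the shares over all genes are not matched. Between 84 and 105 genes were chosen in this way. When a sunlight library had been left out, between 92.9% and 96.7% of the genes lay above all 3 greenhouse libraries of the genotype in it, where between 29.5% and 34.1% of all genes did. With a WT greenhouse library left out, between 92.2% and 100% lay below all 3 sunlight libraries, where between 31.3% and 31.5% of all genes did. The share was 99.0% for OE greenhouse 1 and 96.2% for OE greenhouse 5, where 30.6% and 29.2% of all genes did. OE greenhouse 3 had the lowest share, 79.8%, and here 40.5% of all genes lay below all OE sunlight libraries.

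The size of the difference in a library left out was smaller than in the libraries kept for 9 of the 12, most so for OE greenhouse 1 and 5. In OE sunlight 2, 4 and 6 the median log2 difference from OE greenhouse was 1.11, 1.35 and 1.32 when each was left out, against 1.35, 1.38 and 1.37 in the other 2 OE sunlight libraries. For WT sunlight 2, 4 and 6 it was 1.20, 1.01 and 1.01, against 1.17, 1.09 and 1.19 in the other 2. For OE greenhouse 1, 3 and 5 it was 1.04, 1.35 and 1.01, against 1.44, 1.24 and 1.44 in the other 2. For WT greenhouse 1, 3 and 5 it was 1.06, 1.16 and 1.01, against 1.14, 1.15 and 1.18 in the other 2. The lowest median of the 12 was 1.006, in WT sunlight 4. This library had not helped to choose those genes, while the WT greenhouse libraries it was read against had.

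Among the chosen genes, the largest sunlight difference of both genotypes was that of Potra010306g26557. It stood at 210, 84.7 and 41.9 CPM in OE sunlight 2, 4 and 6, against 7.80, 18.4 and 7.41 CPM in OE greenhouse 1, 3 and 5. In WT it stood at 244, 82.8 and 120 CPM in sunlight 2, 4 and 6, against 7.38, 8.04 and 9.27 CPM in greenhouse 1, 3 and 5. The WT greenhouse libraries lay close together, while in each genotype tree 2 was the highest of a wide spread in sunlight. The limma fold was 9.79 in OE (log2 3.29 ± 0.55, SE) and 16.1 in WT (log2 4.01 ± 0.63, SE). Without OE sunlight 2 the OE fold was 6.18.

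Potra002038g15935 had the next largest difference in WT, at a far lower level. It stood at 8.97, 6.75 and 9.56 CPM in OE sunlight 2, 4 and 6, against 2.77, 0.777 and 0.622 CPM in OE greenhouse 1, 3 and 5. WT sunlight 2, 4 and 6 had 14.4, 19.5 and 11.5 CPM, against 1.21, 1.84 and 3.74 CPM in WT greenhouse 1, 3 and 5. All WT sunlight libraries lay above all OE sunlight libraries, and the greenhouse libraries of both genotypes overlapped. The limma fold was 7.70 in OE (log2 2.94 ± 0.51, SE) and 6.49 in WT (log2 2.70 ± 0.46, SE). The OE fold was 12.1 without OE greenhouse 1.

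Potra003700g22487 had the next largest difference in OE. It stood at 341, 255 and 282 CPM in OE sunlight 2, 4 and 6, against 57.6, 46.4 and 28.6 CPM in OE greenhouse 1, 3 and 5. Its levels were 289, 288 and 152 CPM in WT sunlight 2, 4 and 6, against 46.7, 45.5 and 102 CPM in WT greenhouse 1, 3 and 5. Between the WT conditions, the smallest gap was that of WT sunlight 6 to WT greenhouse 5, the library with the high share of reads outside genes. The limma fold was 6.84 in OE (log2 2.77 ± 0.37, SE) and 3.94 in WT (log2 1.98 ± 0.37, SE).

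The most abundant of the 91 genes had smaller differences. Potra003143g20837 stood at 921, 1213 and 1093 CPM in OE sunlight 2, 4 and 6, against 533, 405 and 531 CPM in OE greenhouse 1, 3 and 5. In WT it stood at 1198, 1278 and 1124 CPM in sunlight 2, 4 and 6, against 646, 648 and 668 CPM in greenhouse 1, 3 and 5. The WT libraries of each condition lay close together, and the OE greenhouse libraries all lay below the WT ones. The limma fold was 2.20 in OE (log2 1.14 ± 0.15, SE) and 1.84 in WT (log2 0.88 ± 0.16, SE).

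Potra001324g11377 stood at 690, 911 and 844 CPM in OE sunlight 2, 4 and 6, against 435, 203 and 352 CPM in OE greenhouse 1, 3 and 5. WT sunlight 2, 4 and 6 had 1025, 1041 and 898 CPM, against 421, 425 and 537 CPM in WT greenhouse 1, 3 and 5. OE greenhouse 3 was the lowest library, and OE and WT overlapped in each condition. The limma fold was 2.58 in OE (log2 1.37 ± 0.25, SE) and 2.16 in WT (log2 1.11 ± 0.25, SE). The third gene with a greenhouse level of 100 CPM or more, Potra001837g33862, was singled out after its values were seen and averaged 197 CPM in OE sunlight, against 97.3 CPM in OE greenhouse, and 237 CPM in WT sunlight, against 113 CPM in WT greenhouse.

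**Figure D3:**
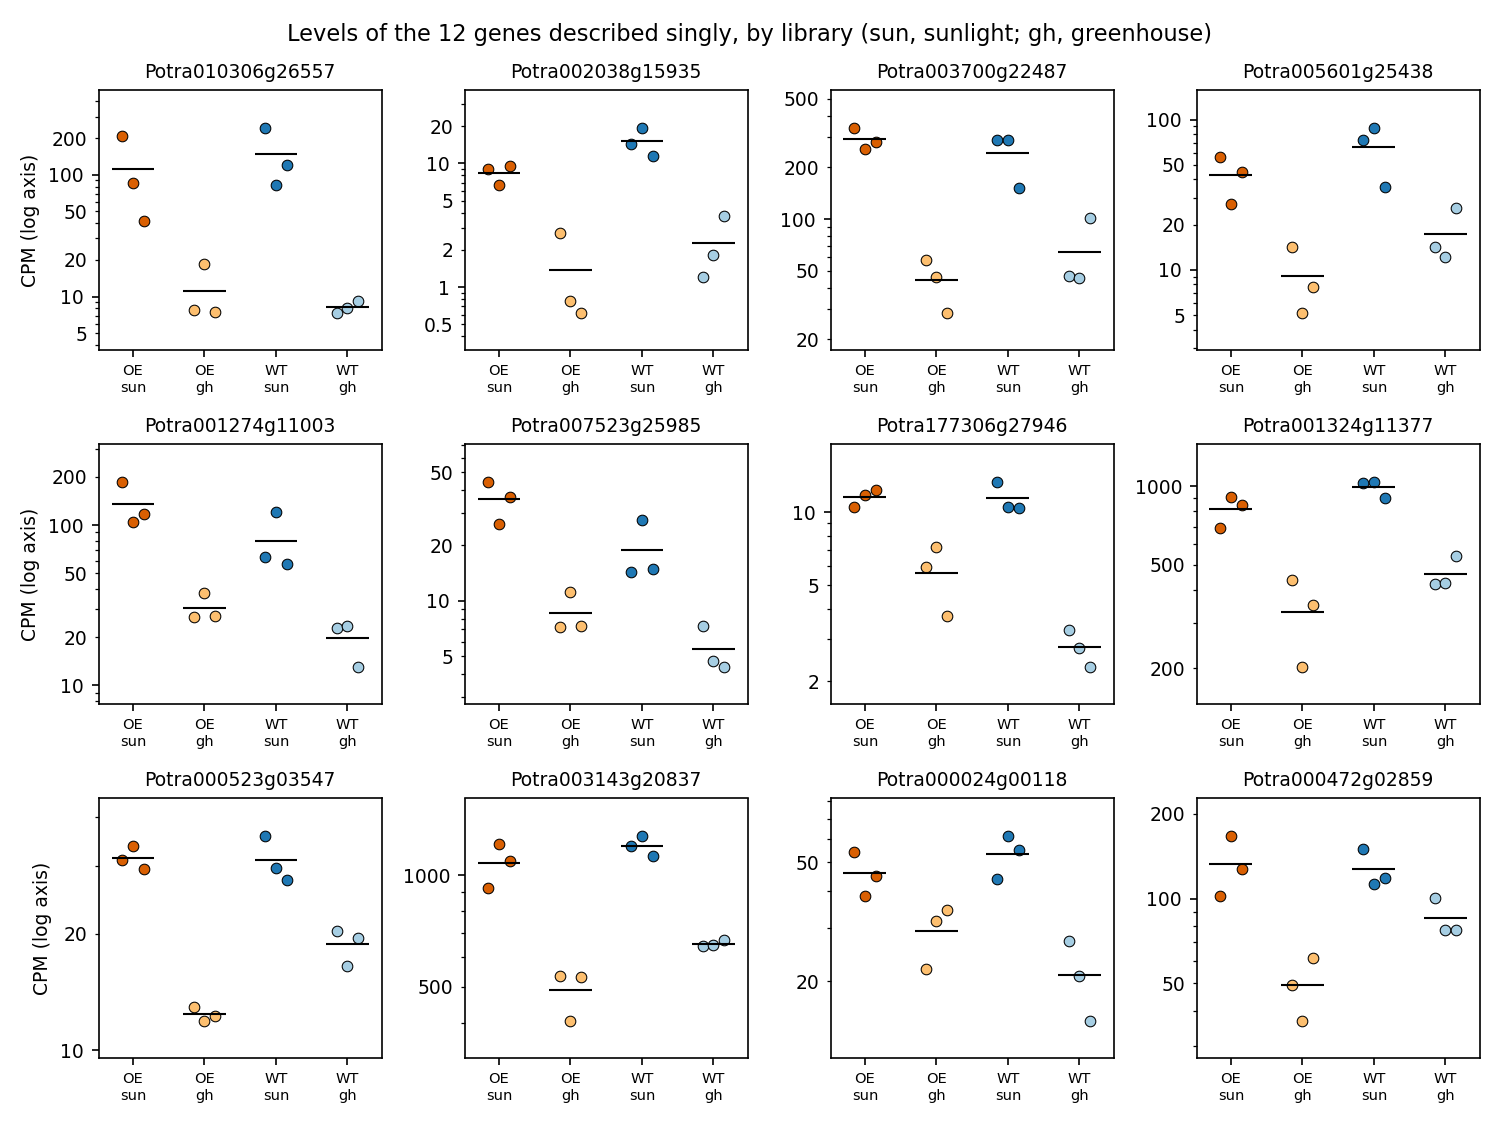
Each panel gives 1 gene, with CPM on a log axis, a point per library (tree numbers run from left to right within a group) and a bar for the mean of 3 libraries. Sunlight points lie above the greenhouse points of the same genotype in all 12 panels, as the choice requires, while the distance between them and the spread within groups differ from gene to gene.

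Across the set, the sunlight difference was larger in OE than in WT for 69 genes and larger in WT for 22. The median of the OE minus WT difference between the sunlight differences was 0.21 on the log2 scale, against -0.0022 for all 20321 genes. This excess rested on 1 library. Without OE greenhouse 3 the difference was larger in OE for 43 genes and in WT for 48, and the median was -0.019. The median sunlight difference in OE was then 1.13, against 1.15 in WT with all libraries. Scaling by library totals alone gave 47 genes with the larger difference in OE, but it set the median sunlight difference of all genes to 0.206 in WT and to -0.023 in OE.

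The 91 genes lay lower in OE greenhouse 3 than in the rest of its group, and this library helped to choose them, since a low value in it raises the sunlight difference. The median deviation of the 91 genes from their group mean was -0.44 in OE greenhouse 3, against 0.20 and 0.23 in OE greenhouse 1 and 5. Over all 20321 genes the 3 medians lay between -0.023 and 0.019. TMM scaling holds such medians near 0, so they do not show how far a library departs over all genes. OE greenhouse 3 was the lowest of the OE greenhouse libraries for 62 of the 91 genes, and for 44.1% of all genes. In the other 9 libraries the median deviation of the 91 genes lay between -0.13 (OE sunlight 2) and 0.14 (OE sunlight 4). Chosen without OE greenhouse 3, the set held 84 genes, of which 60 were members. Of the 31 members that dropped out, 29 then fell short of the limit on the mean difference. Genes chosen without OE greenhouse 3 had a median sunlight difference of 1.35 in it, against 1.24 in OE greenhouse 1 and 5, a much smaller gap than that of the 91 genes. What set this library apart was not tested.

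**Figure D4:**
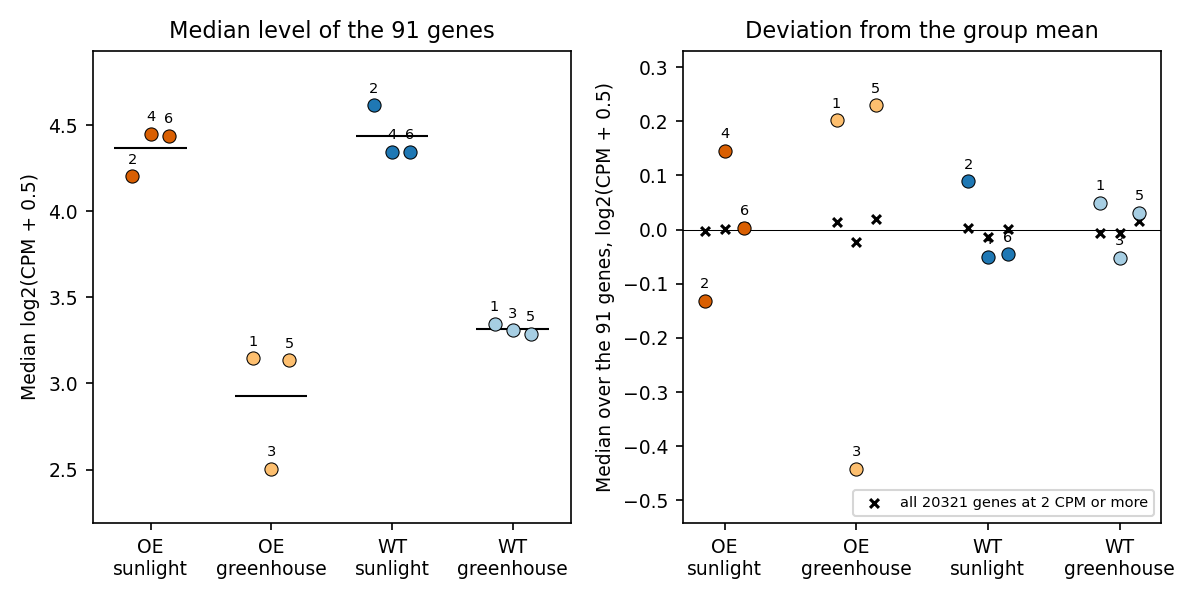
The left panel gives the median log2(CPM + 0.5) of the 91 genes in each library, with a bar for the mean of 3 libraries, and the right panel their median deviation from the group mean (circles) beside that of all 20321 genes (crosses), with tree numbers at the points. OE greenhouse 3 lies at 2.51 in the left panel, below 3.15 and 3.13 for OE greenhouse 1 and 5, and at -0.44 in the right panel. Its cross lies near 0, where the scaling holds the crosses of all libraries.

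For the difference between the sunlight effects of OE and WT, limma called 0 of the 91 genes, and 0% of all 22959 genes. At an unadjusted p under 0.05 there were 10 of the 91, where 6.0% of all tested genes passed (1378 genes). Without OE greenhouse 3 there were 7 of the 91, where 1138 of all genes passed. A limma-trend fit also called 0, with 8 at an unadjusted p under 0.05, where 1405 of all genes passed. The limits on the OE minus WT difference bound this measure, so it is a description as well. The estimates ran from -0.89 to 1.52 with a median standard error of 0.43, so that differences between genotypes of the size seen here were mostly not detectable.

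The genes with the lowest unadjusted p for a larger sunlight effect in OE were Potra000523g03547 and Potra000472g02859. Potra000523g03547 stood at 31.1, 33.8 and 29.4 CPM in OE sunlight 2, 4 and 6, against 13.0, 11.9 and 12.2 CPM in OE greenhouse 1, 3 and 5. Its levels were 35.9, 29.6 and 27.5 CPM in WT sunlight 2, 4 and 6, against 20.3, 16.5 and 19.5 CPM in WT greenhouse 1, 3 and 5. The genotypes overlapped in sunlight, and in the greenhouse every OE library lay below every WT library. The sunlight fold was 2.53 in OE and 1.64 in WT, and the difference between the effects was 0.63 ± 0.19 (log2, SE).

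Potra000472g02859 stood at 103, 168 and 128 CPM in OE sunlight 2, 4 and 6, against 49.3, 36.9 and 61.4 CPM in OE greenhouse 1, 3 and 5. In WT it stood at 151, 113 and 118 CPM in sunlight 2, 4 and 6, against 101, 77.3 and 77.7 CPM in greenhouse 1, 3 and 5. Here too OE lay below WT in the greenhouse without overlap, and the groups overlapped in sunlight. The sunlight fold was 2.70 in OE and 1.49 in WT, the smallest WT difference of the set, and the difference between the effects was 0.86 ± 0.32 (log2, SE).

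The genes with the lowest unadjusted p for a larger effect in WT were Potra177306g27946 and Potra000024g00118. Potra177306g27946 stood at 10.6, 11.8 and 12.4 CPM in OE sunlight 2, 4 and 6, against 5.97, 7.16 and 3.73 CPM in OE greenhouse 1, 3 and 5. WT sunlight 2, 4 and 6 had 13.4, 10.6 and 10.4 CPM, against 3.26, 2.76 and 2.30 CPM in WT greenhouse 1, 3 and 5. Sunlight levels overlapped, and in the greenhouse every OE library lay above every WT library. The sunlight fold was 2.25 in OE and 4.16 in WT, and the difference between the effects was -0.89 ± 0.35 (log2, SE).

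Potra000024g00118 stood at 54.0, 38.7 and 44.9 CPM in OE sunlight 2, 4 and 6, against 21.9, 31.8 and 34.5 CPM in OE greenhouse 1, 3 and 5. Its levels were 44.0, 61.4 and 55.0 CPM in WT sunlight 2, 4 and 6, against 27.3, 20.8 and 14.7 CPM in WT greenhouse 1, 3 and 5. OE and WT overlapped in both conditions, and OE sunlight 4 lay only little above OE greenhouse 5. The sunlight fold was 1.57 in OE, the smallest OE difference of the set, and 2.65 in WT. The difference between the effects was -0.75 ± 0.34 (log2, SE).

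In the greenhouse, more of the 91 genes were lower than higher in OE. OE lay below WT for 65 genes and above it for 26, with a median OE minus WT log2 difference of -0.28, against -0.0062 for all 20321 genes. Without OE greenhouse 3, OE lay below WT for 52 genes and above it for 39, and the median was -0.091. Scaling by library totals alone gave 54 lower genes and a median of -0.11, with the median of all genes at 0.203. In sunlight OE lay below WT for 51 genes and above it for 40, with a median of -0.055, against -0.0086 for all genes. Both conditions gave the lower level to OE for 43 genes and the higher level for 18.

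Few of these differences stood out from the spread between libraries. The 3 OE and 3 WT libraries did not overlap for 19 of the 91 genes in the greenhouse, where 28.4% of all 20321 genes did not overlap. OE was lower in 14 of the 19 and higher in 5. Of all 20321 genes, 3179 did not overlap with OE lower and 2585 with OE higher. In sunlight the libraries did not overlap for 10 of the 91, where 16.2% of all genes did not. With limma, 1 of the 91 genes passed adjusted p under 0.05 for OE against WT in the greenhouse, where 4.76% of all tested genes did, and 0 passed in sunlight, where 1.24% of all tested genes did. The limit on the OE minus WT difference keeps these counts low. The gene that passed was Potra000523g03547, with a log2 difference of -0.60 ± 0.14 (SE), adjusted p = 0.0322. The adjusted p was 0.0565 without OE sunlight 2, 0.0662 without OE greenhouse 3, and 0.0622 without OE greenhouse 5. Leaving out WT greenhouse 1 gave 0.085, and leaving out WT greenhouse 5 gave 0.156. It was 0.139 with library totals alone, where the log2 difference was -0.37, and 0.201 with OE greenhouse 3 and WT greenhouse 5 both left out. With the replicate block it was 0.0903. It lay under 0.05 when any 1 of the other 7 libraries was left out.

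**Figure D5:**
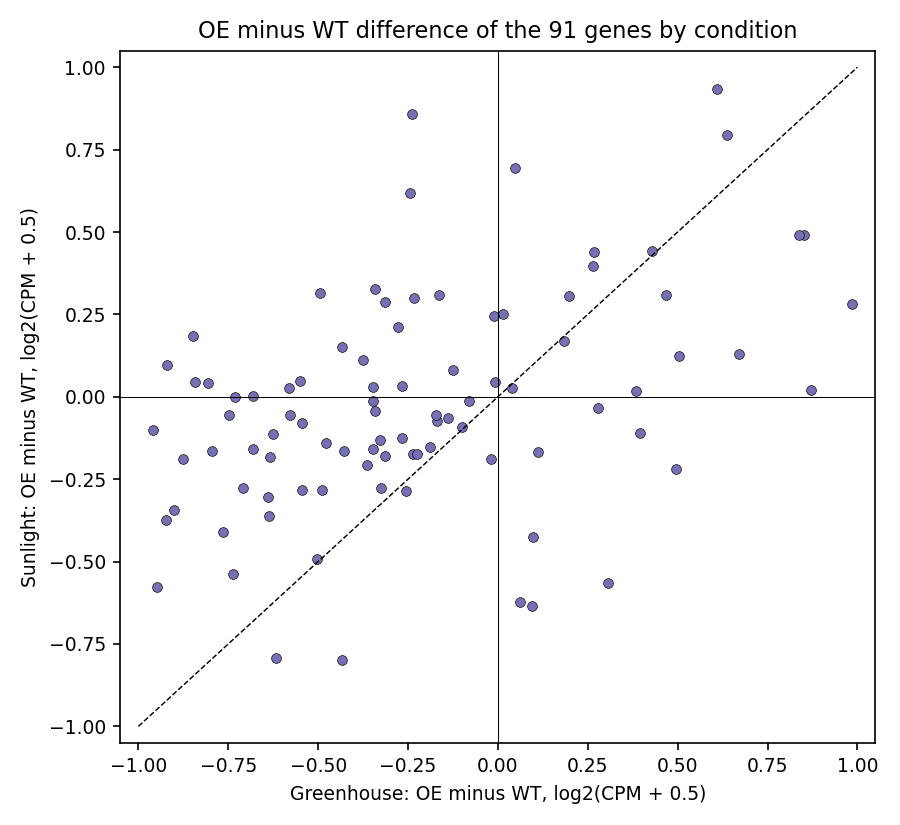
The horizontal axis gives the OE minus WT difference in the greenhouse and the vertical axis that in sunlight, on log2(CPM + 0.5), with 1 point for each of the 91 genes and a dashed line of equal difference. Points lie mostly left of 0 on the horizontal axis (65 genes), and about evenly around 0 on the vertical axis (51 below, 40 above).

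The genes highest in OE relative to WT over both conditions were Potra007523g25985 and Potra001274g11003. Potra007523g25985 stood at 44.5, 26.2 and 36.6 CPM in OE sunlight 2, 4 and 6, against 14.4, 27.6 and 14.8 CPM in WT sunlight 2, 4 and 6. In the greenhouse it stood at 7.23, 11.1 and 7.27 CPM in OE 1, 3 and 5, against 7.26, 4.71 and 4.38 CPM in WT 1, 3 and 5. OE and WT overlapped in both conditions, in sunlight because WT sunlight 4 was as high as OE sunlight 4. The OE minus WT log2 difference was 0.93 in sunlight and 0.61 in the greenhouse.

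Potra001274g11003 stood at 187, 104 and 117 CPM in OE sunlight 2, 4 and 6, against 63.0, 120 and 57.1 CPM in WT sunlight 2, 4 and 6. In the greenhouse it stood at 26.9, 37.9 and 26.9 CPM in OE 1, 3 and 5, against 22.9, 23.7 and 13.1 CPM in WT 1, 3 and 5. Every OE greenhouse library lay above every WT greenhouse library, and in sunlight WT sunlight 4 overlapped the OE libraries. In this gene OE greenhouse 3 was the highest of its group.

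The genes lowest in OE relative to WT were Potra005601g25438 and Potra002038g15935, whose levels are given above. Potra005601g25438 stood at 56.2, 27.3 and 44.9 CPM in OE sunlight 2, 4 and 6, against 73.4, 88.5 and 35.7 CPM in WT sunlight 2, 4 and 6. In the greenhouse it stood at 14.2, 5.18 and 7.70 CPM in OE 1, 3 and 5, against 14.1, 12.2 and 25.9 CPM in WT 1, 3 and 5. The genotypes overlapped in both conditions. The OE minus WT log2 difference was -0.58 in sunlight and -0.95 in the greenhouse for this gene, and -0.79 in sunlight and -0.62 in the greenhouse for Potra002038g15935.

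The standard deviation of log2(CPM + 0.5) within groups had a median of 0.36 over the 91 genes, against 0.24 over all 20321 genes. The separation of libraries favours a narrow spread, while the limits on the sunlight difference can favour genes with an outlying library. The 91 genes and all genes were not matched for level (median greenhouse level 8.92 against 15.01 CPM), and OE greenhouse 3 was included. For 82 of the 91 genes, all 6 sunlight libraries lay above all 6 greenhouse libraries whatever the genotype, where 3.74% of all 20321 genes had this order. The rule required the order within each genotype and bounded the difference between genotypes, so this count follows largely from the choice. The gap between the lowest sunlight and the highest greenhouse library had a median of 0.68 in OE and 0.67 in WT on the log2 scale, and its smallest value was 0.045 in OE and 0.043 in WT.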

How the data were processed

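RNA-seq libraries of 12 poplar leaf samples were analysed. HTSeq 0.6.1, TopHat2 2.1.1 and Cufflinks appear without a role, per the submitters' processing notes. No source used here gives build, annotation or strand setting, so reads of overlapping or antisense genes cannot be told apart. The deposited values are raw read counts per gene, as the values themselves show: whole, 0 or above, with unequal totals. Each file also holds 5 summary entries, left out of library sizes and tests (3.73% to 32.2% of reads outside genes, ambiguous or aligned to several places, each taken alone). Reads aligned to several places were set apart, so near-identical genes can lose reads.

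The unit check could not read the tab-separated columns as counts, so the unit was entered as "other" and count-model tools were not used. Genes were kept if 3 or more libraries reached 0.69 CPM (10 counts in a library of median size) and all libraries summed to 15 counts. They were fitted with limma 3.58.1 in R 4.3.3: voom weights, 1 mean per group, robust moderation of variances, and p-values adjusted by Benjamini and Hochberg over all genes. TMM trimmed 30% of log ratios and 5% of levels at each end. The fit and the rule were also run on simulated data. No outcome of these runs is given here, so they lend the chosen genes no support. Replicates differed by more than sampling noise in every pair, with chi-square values from 12.7 to 74.4 per degree of freedom. The highest, 68.2 and 74.4, were those of OE greenhouse 3 with OE greenhouse 1 and 5, while OE greenhouse 1 and 5 gave 22.4. Next came 58.9 for WT greenhouse 1 and 5 and 46.8 for WT sunlight 4 and 6. The series' design text counts separate trees.

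Genes described singly were, among the 91, the 2 with the largest sunlight difference in each genotype, the 2 most abundant, the 2 with the lowest p for each sign of the difference between effects, and the 2 highest and 2 lowest in OE relative to WT. The members, lists and tests were chosen with earlier results of these data known. Lists of genes by function were not applied, since the IDs carry no names. The limit given for a count of 0 covers counting error only, while SDs and standard errors include the spread between trees.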

Additional observations from a re-analysis of the deposited data

How the results depend on the processing

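The membership rule, with the scaling, pseudocount or level limit changed or the OE minus WT limit dropped, chose between 70 and 123 genes, and between 84 and 105 with each library left out. With OE greenhouse 3 and WT greenhouse 5 both left out it chose 100, of which 63 were members. Members called for sunlight in OE numbered 31 to 70 over the left-out libraries and 9 with only the compared libraries, where WT gave 48. Calls among all genes were not counted for any fit of only the compared libraries. Members called for sunlight in WT numbered 5 to 74 over the left-out libraries, 70 with library totals alone and 82 with library quality weights, where OE gave 81. All genes called in WT, in either direction, numbered 320 in the reported fit, 35 to 1017 over the left-out libraries, 866 with library totals alone and 2286 with quality weights. Those called in OE numbered 1135 in the reported fit, 116 to 1214 over the left-out libraries and 2481 with quality weights. The median sunlight difference of the members in WT was 1.32 with library totals alone, a scaling that set the WT median of all genes to 0.206. Over left-out libraries it ran from 1.11 to 1.18 in WT and from 1.13 to 1.52 in OE. Members called for OE against WT in the greenhouse numbered 2 with limma-trend and with quality weights, and 0 with the replicate block, with both libraries left out and with only the compared libraries. All genes called there numbered 1093 in the reported fit, 1188 with limma-trend and 1835 with quality weights. They numbered 387 with the replicate block and 323 with both libraries left out. Over left-out libraries 0 to 4 members were called, and 277 to 1171 of all genes. In sunlight 2 members were called with quality weights and 0 to 1 over left-out libraries. All genes called in sunlight numbered 284 in the reported fit, 718 with quality weights and 117 to 486 over left-out libraries. The difference between effects gave 0 members in every fit run, the replicate block included, with 2 to 14 at an unadjusted p under 0.05. All genes at that unadjusted p numbered 1378 in the reported fit and 796 to 2065 over the fits. The 2 members came with library totals alone, where 2065 of all genes passed. The cause of these changes was not tested.

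Plants of both genotypes share numbers, but same-numbered libraries did not deviate together (r between -0.539 and 0.079), and 2 of 12 correlated best with their own number. For single genes described above, 406 refitted folds kept direction and side of the threshold, 63 lost the call, 11 gained it and 0 changed sign. Low counts limit genes near 2 CPM.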

Other observations

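The IDs of the 91 genes, read as the part before the letter g, fell on 89 distinct parts, and the 4 genes that shared one came as 2 pairs, noticed after their values were seen. Potra000358g01425 averaged 129.998 CPM in OE sunlight, against 53.2 CPM in OE greenhouse, and 127 CPM in WT sunlight, against 67.7 CPM in WT greenhouse. Its partner Potra000358g01444 averaged 5.56, 2.22, 4.48 and 2.49 CPM in these groups in the same order. Potra001246g10694 averaged 1.84, 0.734, 2.12 and 0.570 CPM in them, and its partner Potra001246g30683 averaged 3.41, 1.29, 2.96 and 0.752 CPM. Members shared this part of the ID with other genes at 2 CPM or more in 504 pairings. In 4 of these (0.794%) the other gene was a member, which is the same 2 pairs counted from each side. Of all 20321 genes at 2 CPM or more, 0.448% were members.

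A sunlight difference that was larger in one genotype by at least 1 on the log2 scale was seen in 3 of the 91 genes, singled out after their values were seen, each time in OE. Potra000803g06370 had 2.12 in OE and 1.10 in WT, Potra001686g13802 had 2.14 in OE and 1.10 in WT, and Potra175850g27834 had 1.86 in OE and 0.76 in WT. Without OE greenhouse 3 the difference between OE and WT was 0.74 for Potra000803g06370, 0.70 for Potra001686g13802 and 1.24 for Potra175850g27834. Potra004223g24702, also noticed after its values were seen, then had 0.35 in OE and 1.83 in WT, where all libraries gave 1.12 in OE and 1.83 in WT.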
